A study of Mus musculus with 6 samples.

Results

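miR-652 is the microRNA described here, through the 1 assay on the panel that carries its name, of 596 miRNA assays in all. The assay was picked by its name, and it had been singled out earlier because miR-652 was much lower in macrophages without Dicer and was measured in every sample. Its difference between the genotypes is therefore given as a description, with no test. MicroRNAs were measured by TaqMan RT-PCR in macrophages grown for 7 days from the bone marrow of male mice aged 6 to 8 weeks. The wild-type (WT) group was LysM-Cre/Dicerwt/wt/Apoe–/– and the knockout (KO) group LysM-Cre/Dicerflox/flox/Apoe–/–, with 3 mice in each. All 6 mice thus carried LysM-Cre and lacked Apoe, so the WT mice are no model of an unmodified mouse. LysM-Cre is active in the myeloid lineage. Dicer mRNA was not among the assays, and the share of cells with the floxed gene deleted is not known.

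Dicer is the RNase that cuts a precursor hairpin into a short duplex, of which usually 1 strand is kept in Argonaute as the mature miRNA. The mature strand finds its targets mainly through its seed, bases 2 to 8 from the 5′ end. miR-652 is a conserved miRNA known to lie in an intron of Tmem164, a gene for a transmembrane protein, and it has been studied in blood cells and in the repair of endothelium, where it has been reported to repress the cell cycle gene Ccnd2.

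The 2 strands and their hairpin are shown as RefSeq gives them on the mouse build GRCm38.p6. Capitals mark the seed in each strand, and in the hairpin they mark the 3′ strand.
miR-652-3p: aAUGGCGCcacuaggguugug
miR-652-5p: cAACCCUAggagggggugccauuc
hairpin: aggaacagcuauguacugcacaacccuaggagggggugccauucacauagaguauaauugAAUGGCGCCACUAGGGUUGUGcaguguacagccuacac
The hairpin covers 98 bases at chrX:142739000-142739097 on the plus strand, with the 5′ strand at chrX:142739020-142739043 and the 3′ strand at chrX:142739060-142739080. It starts 58653 bases into Tmem164 (chrX:142680347-142843494, plus strand), and the tables used here do not separate exons from introns. The strands have 24 and 21 bases, with 16 bases between them. Of the 1679 mature mouse names in the RefSeq table, 1, miR-652-3p itself, had the seed of the 3′ strand, so it has no seed family there. The nearest other miRNA gene on the X chromosome, Mir680-2, lies 1558790 bases away, so the hairpin is not part of a close cluster. The assay's name carries no strand; in the naming of that time the plain name stood for the 3′ strand, and no assay on the panel was named for the 5′ strand.

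miR-652 was readily measured in WT macrophages and much lower in every KO sample. The threshold cycle (Ct), the PCR cycle at which the signal crosses a threshold, falls by 1 for each doubling of template. WT replicates 1, 2 and 3 gave a Ct for miR-652 of 22.5, 22.0 and 20.9. KO replicates 1, 2 and 3 gave 29.9, 24.5 and 23.6. The groups did not overlap, and each KO value lay below Ct 35, the ceiling taken here for a measured assay, so the difference is no bound. Such separation was common. Relative to controls, the scale used below, it held for 130 of the 201 assays below Ct 35 in all 6 samples (64.7%), miR-652 among them. For raw Ct this share was not counted. Wells without amplification are listed at Ct 40.

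The rows form 2 blocks, told apart by their order and the repeated control assays, and no label calls them pools. The assay lies in the first block, here named pool A (335 miRNA assays), which has its own 5 endogenous small RNAs as controls. These controls had a mean Ct of 21.1, 20.6 and 19.1 in the WT samples, and of 22.8, 20.3 and 19.3 in the KO samples, so KO replicate 1 had the latest controls. The groups' means, 20.2 ± 1.02 and 20.8 ± 1.82 (SD, n = 3 per group), overlapped (exact permutation p = 0.8, two-sided; 3 samples against 3 cannot give a p under 0.1). Relative to this mean each control differed between KO and WT by between -0.16 (snoRNA202) and 0.12 (Y1) on the log2 scale.

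The level of miR-652 is given as the log2 ratio to the mean of these controls, that is the controls' mean Ct minus its own. WT samples had levels of -1.43, -1.42 and -1.80 (mean -1.55 ± 0.22, SD, n = 3). KO samples had levels of -7.02, -4.26 and -4.25 (mean -5.18 ± 1.60, SD, n = 3). As a percentage of the mean control level, WT samples had 37.1%, 37.3% and 28.7% and KO samples 0.770%, 5.21% and 5.27%. The WT samples lay close together, while KO replicate 1 stood far below the other two KO samples, which were nearly equal. The difference of KO minus WT was -3.62 ± 0.84 (log2, limma standard error, n = 3 per group), 12.3-fold lower in KO. With the replicate number as a block the standard error was 0.79. In these bulk samples, fewer cells with miR-652 and less miR-652 per cell cannot be told apart.

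**Figure D1:**
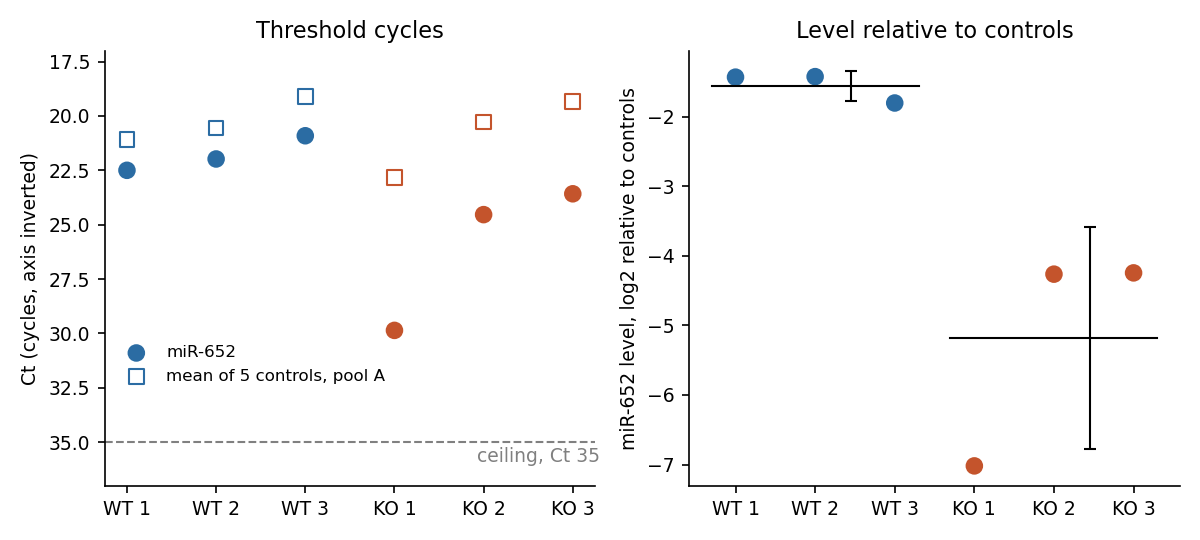
Left, Ct of miR-652 (filled circles) and mean Ct of the 5 controls of pool A (open squares) in each WT (blue) and KO (orange) sample, on an inverted axis in cycles; right, level of miR-652 relative to these controls (log2), with the group mean (line) and SD (bar, n = 3). The controls of the groups overlap, while miR-652 lies at -1.80 or higher in WT and at -4.25 or lower in KO.

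Set against the WT mean, KO replicates 1, 2 and 3 kept 2.26%, 15.3% and 15.5% of the miR-652 level, 44.2-fold, 6.55-fold and 6.46-fold lower. The gap between KO replicates 2 and 3, 0.018 on the log2 scale, was smaller than the median gap of 0.68 over the 201 miRNA assays that lay below Ct 35 in all 6 samples. KO replicate 1 lay 2.77 below the mean of the other KO samples, 6.80-fold, beside a median of 0.85 below over these assays, and 6 of the other 200 assays dropped further there. KO replicate 1 also had the fewest miRNA assays below Ct 35, 219 beside 277 and 290 in the other KO samples and 307 to 309 in WT, and the part of this in its low miR-652 value was not tested. The WT samples spanned 0.38 for miR-652, less than the median span of 0.96, and 32 assays spanned less.

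Without KO replicate 1 the difference of miR-652 was -2.70 ± 0.35 (log2, SE), 6.50-fold lower, so this sample moves the size of the difference and not its direction. Leaving out any other sample gave differences from -4.09 to -3.56. Matched by replicate number, KO minus WT was -5.59, -2.84 and -2.44 on the log2 scale in pairs 1, 2 and 3, or 48.1-fold, 7.16-fold and 5.43-fold lower.

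The order of the assays within a sample needs no control. Among the 140 assays of pool A below Ct 35 in all 6 samples, miR-652 ranked 40, 41 and 42 from the top in WT and 79, 59 and 59 in KO. Its level lay 1.35, 1.56 and 1.49 above the pool's median in WT (log2), and -0.88, 0.80 and 0.79 from it in KO. The ranks of the groups did not overlap. How many other assays separate by rank was not counted, and the assay was chosen for its fall, so nothing is read from this. In KO replicate 1 alone miR-652 was below the median of its pool. Ct values of different assays also depend on the efficiency of each assay, so ranks are compared between samples and not as amounts.

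The size of the difference depended little on which control was used. It was -3.72 with U6, -3.72 with U87, -3.74 with Y1, -3.48 with snoRNA135 and -3.46 with snoRNA202 as the only control, and -4.20 with no reference. With the mean of the pool A miRNAs below Ct 35 in all 6 samples as reference, which takes away a change common to them, it was -1.74 ± 0.58 (SE). Set against the WT mean, miR-652 lay -3.18, -1.17 and -1.32 from the median of the 201 assays in KO replicates 1, 2 and 3. Since the assay was chosen for its fall, nothing is read from its place below the common shift.

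**Figure D2:**
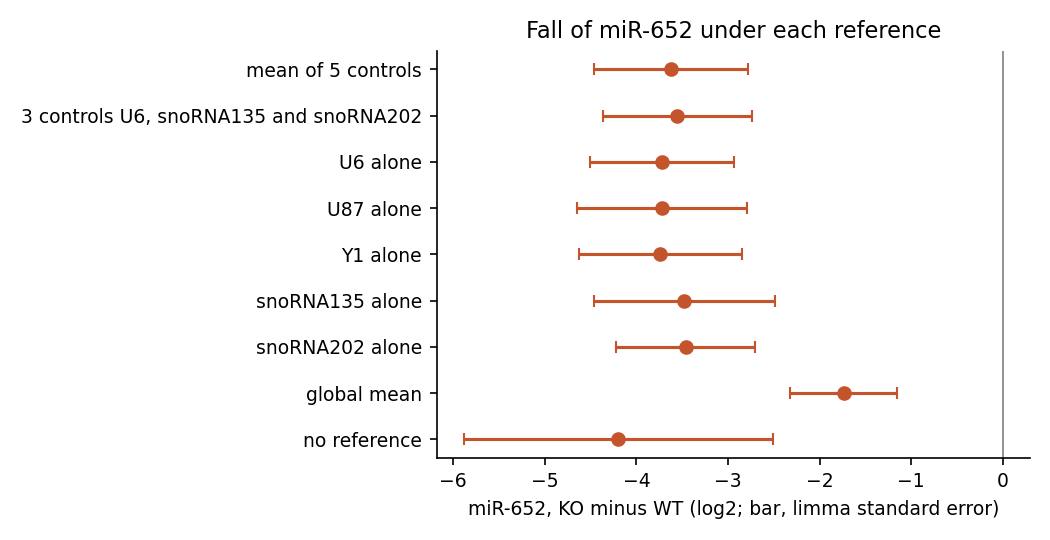
Difference of miR-652 between KO and WT (log2, x axis; bars, limma standard error, n = 3 per group) under each reference (y axis). The controls singly give -3.74 to -3.46, and the global mean of the miRNAs gives -1.74.

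The authors' deposited table gives miR-652 a relative quantity of 1.13, 1.06 and 0.835 in the WT samples, and of 0.0252, 0.159 and 0.154 in the KO samples. These were recovered from the Ct values, to within 1% in all 6 samples, with U6, snoRNA135 and snoRNA202 as controls and the geometric mean of WT as 1. The fold change in the authors' deposited table is 0.112, or 8.93-fold lower in KO. It is the ratio of arithmetic means, in which the low value of KO replicate 1 weighs little; geometric means of the same quantities give 11.7-fold.

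miR-652 lay at the low end of the distribution of the assays measured in all 6 samples. This set leaves out every assay that reached Ct 35 in any sample, also those lost in KO. Over all 282 tested assays, with Ct capped at 35, 21 had a lower value than miR-652. Over the 201 assays below Ct 35 in all 6 samples the median difference was -1.82 (log2), with the middle of the distribution between -2.23 and -0.94, and 173 differences were negative. miR-652 lay 1.81 below this median, 3.50-fold beyond the median assay, and 199 assays (99.5% of the other 200) had a higher value. Both blocks of rows enter this median, and within pool A alone the median was -1.98. The lowest WT sample was above the highest KO sample in 130 of these 201 assays (64.7%), miR-652 among them, and in 59.9% of the 282 assays tested for the genotype below. Since the assay was chosen on this contrast, nothing is read from its place among them.

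Among the 201 assays, the 1 with a lower value was miR-322*, the passenger strand of the miR-322 hairpin, at -3.87 ± 1.38 (SE). It had levels of -5.54, -6.14 and -4.87 in the WT samples. Its KO samples, at -12.00, -9.87 and -6.30, were more scattered than those of miR-652. The next assays after miR-652 were miR-103, known to repress Dicer mRNA, at -3.23 ± 0.62, miR-301b of the miR-130 family at -3.20 ± 0.50, and miR-99b of the miR-99/100 family at -3.19 ± 1.03. The gaps between miR-652 and these neighbours are smaller than its own standard error of 0.84, so its place in the order is not fixed by these samples. Within pool A, where every assay shares the same reference, miR-652 had the lowest value of the 140 assays.

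Without KO replicate 1, and with the assays kept at the same 201, miR-652 was sixth in the order at -2.70, behind miR-301b (-2.95), miR-301a (-2.83), miR-324-5p (-2.77), let-7a (-2.73) and miR-103 (-2.71), beside a median of -1.40. This comparison was added after the values had been seen. When each fit admitted the assays below Ct 35 in all samples left in it, 12 of 246 assays had a lower value than miR-652.

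**Figure D3:**
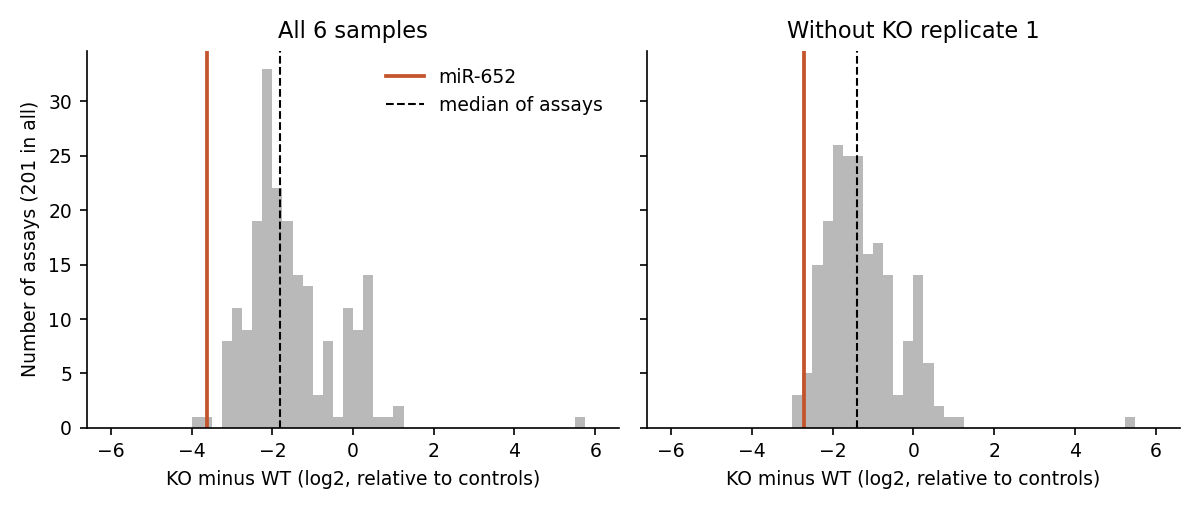
Number of assays (y axis) by difference of KO minus WT (x axis, log2 relative to controls) for the 201 assays below Ct 35 in all samples, with all 6 samples (left) and without KO replicate 1 (right); the orange line is miR-652 and the dashed line the median. miR-652 lies at -3.62 on the left, with 1 assay beyond it, and at -2.70 on the right, with 5 beyond it.

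Assays with a WT level near that of miR-652 on the scale relative to controls showed a wide span of differences; a like level on this scale does not mean a like amount, since assays differ in efficiency. By mean WT level miR-652 was assay 40 of 140 in pool A. The assays just above it were miR-26b (-1.50 ± 0.16, SD, n = 3), miR-20b of the miR-17 family (-1.51 ± 0.62) and miR-100 (-1.53 ± 0.37), and those just below it were miR-301b (-1.57 ± 0.12), miR-19a of the miR-17 cluster (-1.61 ± 0.82) and miR-301a (-1.70 ± 0.17). All 6 lay within the WT spread of miR-652, so the order among these 7 is not resolved.

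In KO these neighbours came apart. Over all 282 assays tested with limma (those below Ct 35 in all 3 samples of at least 1 group), 105 (37.2%) were lower in KO at an adjusted p under 0.05 and 1 (0.355%) was higher. Among the neighbours miR-301b fell 9.22-fold (adjusted p = 0.0267), miR-301a 8.42-fold (adjusted p = 0.0285) and miR-100 4.11-fold (adjusted p = 0.0312). The others did not pass: miR-26b was at -1.51 (adjusted p = 0.0583), miR-19a at -1.24 (adjusted p = 0.166) and miR-20b at -1.55 (adjusted p = 0.0994). With replicate numbers blocked miR-20b had an adjusted p of 0.0464. Without WT replicate 1, 2 or 3 or without KO replicate 2, 0 of these 6 passed with limma, the 3 that had fallen having adjusted p values from 0.0560 to 0.111; without KO replicate 1 or 3 those 3 passed (0.0142 to 0.0462). The count over all assays behaved alike, with 2, 2, 2 and 3 lower assays in the former 4 fits and 101 and 112 in the latter.

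In a wider window, 33 pool A assays had a mean WT level within 1 log2 unit of miR-652. Their median difference was -2.07, 4.20-fold lower, and they ranged from -3.20 for miR-301b to -1.03 for miR-92a. With all 6 samples 0 of the 33 had a lower value than miR-652. Without KO replicate 1, a comparison added after the values had been seen, 3 of them had: miR-301b (-2.95), miR-301a (-2.83) and let-7a (-2.73), beside -2.70 for miR-652 and a median of -1.74.

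**Figure D4:**
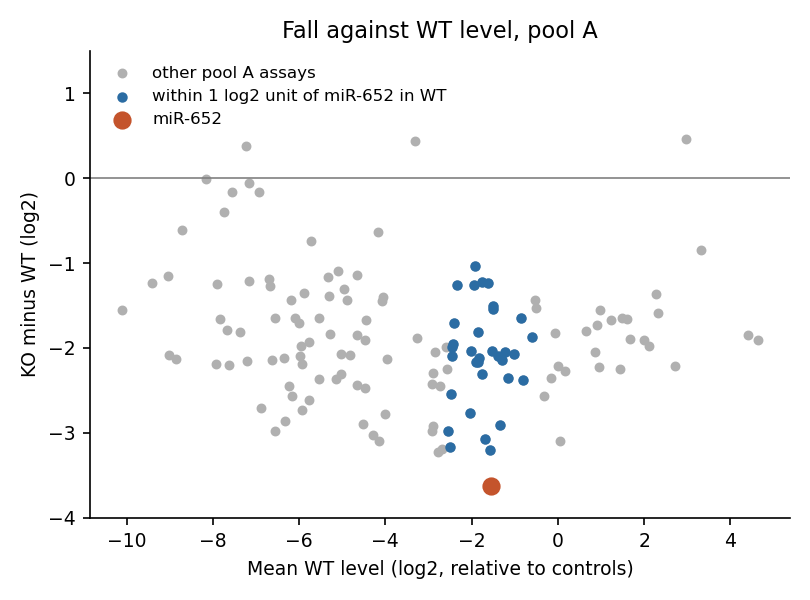
Difference of KO minus WT (y axis, log2) against mean WT level (x axis, log2 relative to controls) for the 140 assays of pool A below Ct 35 in all samples; blue, the 33 assays within 1 log2 unit of miR-652 in WT, orange, miR-652. The blue assays span -3.20 to -1.03, and miR-652 lies below them at -3.62.

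The assays whose values over the 6 samples were most like those of miR-652 shared its deep drop in KO replicate 1. Likeness was the root-mean-square difference over the 6 samples after each assay's WT mean was subtracted, 0 for equal profiles, and all of it rests on the genotype contrast, so it is a description. The nearest were miR-139-5p (0.41), miR-324-3p (0.48), miR-103 (0.51), miR-744 (0.56) and miR-185 (0.57), beside a median of 1.54 over the other 200 assays. Relative to the WT mean miR-139-5p was at -4.64, -2.75 and -2.12 in KO replicates 1, 2 and 3, where miR-652 was at -5.47, -2.71 and -2.69. miR-103 was at -4.25, -2.54 and -2.88. The median assay was at -2.29, -1.54 and -1.37, so that all 3 KO samples were lowered and replicate 1 most. All 5 nearest assays lay in pool A, and they share its controls.

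**Figure D5:**
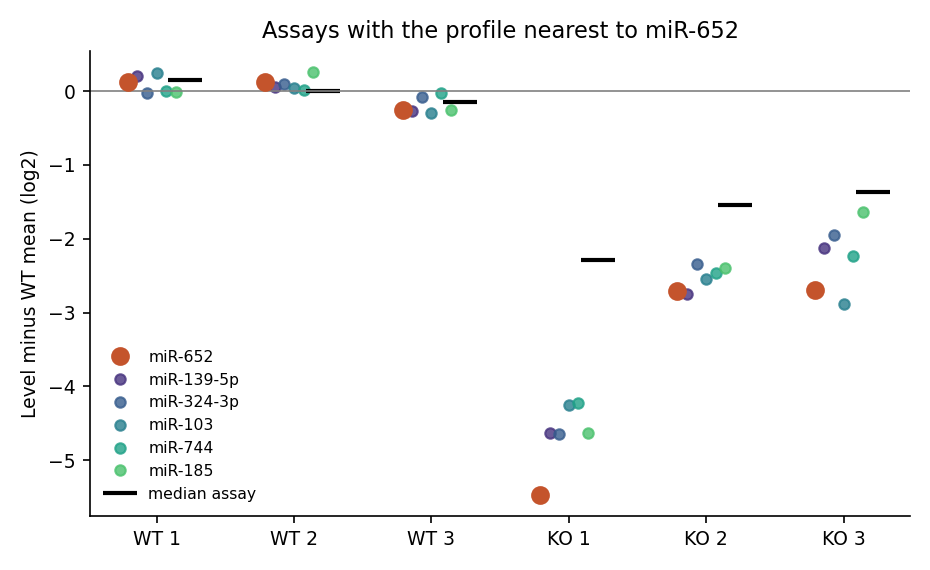
Level minus the mean WT level (y axis, log2) in each of the 6 samples (x axis) for miR-652 (large orange points), the 5 assays with the nearest profile (small points) and the median of the 201 assays (black bars). In KO replicate 1 miR-652 lies at -5.47, below these 5 assays, and the median lies at -2.29.

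miR-652 was set beside the other miRNAs of its chromosome. RefSeq genes were found for 563 of the 596 miRNA assays, and 82 assays other than miR-652 belonged to genes that all lie on the X chromosome. Of the 34 tested, 16 were lower in KO with limma, 0 were higher and 18 did not pass, beside 105 (37.2%) lower of all 282 tested. Their median was -1.94, beside -1.91 for all tested assays. Without WT replicate 1, 2 or 3 or without KO replicate 2, 1 of them passed, miR-98 of the let-7 family, which did not amplify in KO. Of the 22 X-linked assays below Ct 35 in all 6 samples, 1 had a lower value than miR-652, the passenger strand miR-322*. The lowest values were those of miR-98, from the Huwe1 gene, and of miR-501-3p, from the Clcn5 gene, at -5.47 with KO replicate 1 not amplified and entered at the ceiling. The highest were those of miR-188-5p, also from Clcn5 (0.47, adjusted p = 0.669), and of miR-463 (1.99, adjusted p = 0.151), for which 2 of 3 WT samples entered at the ceiling.

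Like miR-652, 181 further assays belonged to miRNAs that lie within a protein-coding gene on the same strand. Among the 97 tested, limma called 49 lower in KO and 1 higher, and 47 did not pass, beside 37.2% lower and 0.355% higher over all tested assays. Their median was -2.16, beside -1.91 for all tested assays. The 1 that rose was miR-21*, a passenger strand from within Vmp1, at 5.71, from a low mean WT level of -11.12. The other strand of its hairpin, miR-21, was at -2.21. After miR-21* the next highest was miR-677 (1.44, adjusted p = 0.399), and the lowest were again miR-98 and miR-501-3p. With WT replicate 1, 2 or 3 or KO replicate 2 left out, 1, 1, 1 and 2 of them were lower. Of the 67 that lay below Ct 35 in all 6 samples, 0 had a lower value than miR-652.

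The cell type was checked with miRNAs of other cells. The 3 haematopoietic miRNAs miR-223, miR-142-3p and miR-142-5p together stood at 1937% to 4195% of the mean control level in WT and 603% to 1137% in KO. Most of this sum is miR-223, with a mean WT level of 4.64 (log2), beside 1.67 for miR-142-3p and -4.89 for miR-142-5p. Assays differ in efficiency, so each sum is compared between samples and not with the sums of other cell types. The mesenchymal miRNAs miR-143, miR-145, miR-199a-3p and miR-214 summed to 61.5%, 40.6% and 0.508% in WT and to 4.84% to 9.87% in KO, so WT replicate 3 stood apart. The epithelial miR-200 family (5 assays) summed to 11.4% to 13.0% in WT and 2.16% to 5.29% in KO, endothelial miR-126-3p to 0.551% to 1.06% and 0% to 0.545%, lymphocyte miR-150 to 0.381% to 3.39% and 0.214% to 0.671%, and erythroid miR-451 to 0% to 0.00594% and 0% to 0.0150%, with assays at or above Ct 35 counted as 0; miR-144 is not analysed here. At 0 by this count were miR-126-3p and miR-200a in KO replicate 1, miR-429 in KO replicates 1 and 2, and miR-451 in WT replicates 1 and 3 and KO replicate 1. These markers are themselves products of Dicer, except miR-451, so they do not give cell numbers apart from the genotype. Without WT replicate 3 the difference of miR-652 was -3.75, and its WT level in that sample, -1.80, lay within 0.38 of the others. The part of other cells in the difference of miR-652 was not tested.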

How the data were processed

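Per the labels' protocols, a mirVana kit gave the RNA, and TaqMan reagents served for reverse transcription and preamplification. Instrument and Ct software are not given in the sources used here. As deposited by the authors, the files hold Ct scores for 608 assays, relative quantities (ratios to WT) and fold ratios of KO over WT. Ct was capped at 35 and subtracted from the mean Ct of the 5 controls of the block and sample; the sign makes higher values mean more RNA. Genotypes were tested by limma 3.58.1 under R 4.3.3 (two-sided moderated statistics, Benjamini-Hochberg over 282 tested assays), with Python 3.11.15 for the rest. The Ct of the controls alone shows the input, and the 6 samples limit the precision.

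The labels call the samples biological replicates. Same-numbered samples deviated together (correlations of 0.29 to 0.59 over 201 assays, beside -0.43 to -0.094 for unlike numbers). Deviations were taken from each group's mean, so positive values for like numbers bring negative ones for unlike numbers. The numbers were taken as possible pairs, though no label states a shared batch. The main fit has no block, so its adjusted p values ignore any pairing. It gave 105 lower assays, beside 118 with the block. The member and the lists were chosen with earlier results of these data known. Named are miR-652, its controls, its 3 neighbours on each side in fall and in WT level, the 5 nearest profiles, the 2 lowest and 2 highest members of each list, and the markers. A larger fall than that of miR-652 was found for 1 assay, so its upper side has 1 neighbour. Genes were matched by name to RefSeq tables of GRCm38.p6.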

Additional observations from a re-analysis of the deposited data

How the results depend on the processing

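Under the other settings the difference of miR-652 stayed negative, and it moved by more than its within-group SD of 1.14 only with the global mean (-1.74). That reference also gave 96.0% of assays with a higher value, a median difference of -0.024, 2 lower assays, 1 in the X-linked and 1 in the intragenic list. Lower assays in all, X-linked and intragenic numbered 4, 1 and 3 with snoRNA135 alone, 2, 1 and 1 with no reference, and 2, 1 and 1 with no filter on late Ct values, where the X-linked median was 0.43. With Y1 alone, or with Ct as deposited and no ceiling, 10 X-linked assays were lower. The cause of these changed counts was not tested. With no filter all 596 assays entered the fit, and 220 of them were at Ct 40 in all 6 samples. An assay at the ceiling in all 6 samples takes the difference of its controls' mean Ct alone, 0.57 in pool A and 0.43 in pool B. The X-linked median without the filter equals the latter, so it is no measured change of X-linked miRNAs. Leaving out 1 sample gave -4.09 to -2.70 for miR-652, 95.1% to 100% of assays with a higher value (97.5% without KO replicate 1 over the same 201 assays), medians of -1.95 to -1.47, and 2 to 112, 1 to 16 and 1 to 54 lower assays. With the replicate block 118 assays were lower, 14 X-linked and 50 intragenic. The authors' quantities gave -3.16 for miR-652. No late Ct limits miR-652, whose latest value was 29.9.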

Other observations

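Besides miR-652, 9 of the 201 assays below Ct 35 in all samples had a difference below -3 (log2), and 7 of these 9 come from miRNAs inside protein-coding genes: miR-103, miR-301b, miR-99b, miR-139-5p, miR-511, miR-342-3p and miR-301a. The exceptions were miR-324-5p and miR-322*. Of the other 200 assays as a whole, 67 (33.5%) lie inside such genes. Of the 9, 8 are in pool A, where 37.4% of the other 139 assays lie inside such genes. Without KO replicate 1 the lowest value of the 201 assays was -2.95, for miR-301b, so the list below -3 rests on that sample. Within pool A the 52 intragenic assays had a median difference of -2.14 and the 85 others matched to RefSeq -1.84, at median WT levels of -3.10 and -2.84. Within pool B the medians were -0.89 for 15 and -0.84 for 32 assays. These groups were looked at after the values were known and were not tested. Of the 5 assays with the profile nearest to miR-652, 4 are intragenic, from Pde2a, Pank3 and Pank2, Map2k4 and Tango2.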
